A study of Rattus norvegicus with 24 samples.

Results

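Segment 2 areas of day 7 skin wounds treated with CuNZ@Gel were compared with Segment 2 areas of Sham wounds. The comparison takes 8 of the 24 profiled areas: 4 CuNZ@Gel and 4 Sham areas, from 4 of the 6 specimens, chosen by the treatment and the segment in the sample labels and not by any measured value. All wounds, Sham included, were full-thickness skin defects of 8 mm, splinted and sutured against contraction, on male SD (Sprague-Dawley) rats that had been made diabetic with STZ (streptozotocin) at 5 weeks of age. Tissue was taken at day 7, fixed and embedded in paraffin, and read by GeoMx, in which gene-specific probe tags are released by ultraviolet light from a chosen area and counted by sequencing. Sham wounds stand as the control, CuNZ@Gel wounds received the hydrogel with CuNZ (the series title speaks of a nanozyme hydrogel), and Gel wounds, used only for comparison, received hydrogel. The labels do not give the composition of CuNZ or the treatment details of Sham. Each area was a segment of a chosen region with positive immunofluorescence. The labels name neither the fluorescent markers nor what sets Segment 2 apart from Segment 1, do not spell out the region name "mac", and leave unstated whether a numbered specimen was 1 animal. The series title presents the nanozyme gel as acting on inflammation epigenetically.

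Diabetic wounds heal slowly and keep inflammatory macrophages for long. Macrophages clear debris and red cells, store the iron they recover in ferritin, make complement proteins such as C1q and C3, and present antigen on MHC class II molecules. Fibroblasts and contractile myofibroblasts lay down collagen and matricellular proteins such as the tenascins. Metallothioneins are small metal-binding proteins whose genes are switched on by zinc and copper through metal response elements, short promoter motifs bound by the factor MTF1.

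Since Mt2 was among the largest rises and Mt1 did not pass the threshold, the promoters of both rat genes are shown, as given by RefSeq for GRCr8. The 250 bases before each annotated start are printed 5′ to 3′ on the gene's minus strand. Capitals mark matches, on either strand, to the metal response element core written as TGCACNC or TGCGCNC. The Mt2 target was matched to the rat gene Mt2A through its synonym.
Mt1, chr19:10832976-10833225: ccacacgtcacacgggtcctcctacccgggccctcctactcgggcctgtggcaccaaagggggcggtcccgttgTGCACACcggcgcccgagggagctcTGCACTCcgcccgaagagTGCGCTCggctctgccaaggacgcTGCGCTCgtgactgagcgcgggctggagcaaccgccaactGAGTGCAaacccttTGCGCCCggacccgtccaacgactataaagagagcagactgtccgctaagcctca
Mt2A, chr19:10838709-10838958: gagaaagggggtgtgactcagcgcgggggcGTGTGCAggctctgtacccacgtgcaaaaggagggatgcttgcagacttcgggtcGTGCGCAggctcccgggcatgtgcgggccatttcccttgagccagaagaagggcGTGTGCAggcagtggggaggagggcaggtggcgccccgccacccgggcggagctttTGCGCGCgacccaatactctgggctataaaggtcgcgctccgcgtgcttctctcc
The Mt1 window held 6 matches and the Mt2A window 4. Of 33469 rat promoter windows of this length, 20.6% held at least 1 match, 0.266% held 4 or more and 0.0269% held 6 or more. A match is a string of letters and shows no binding.

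Segment 2 areas were shallow. The Sham areas held 118812 to 183292 counts over 19963 targets and the CuNZ@Gel areas 86385 to 244548, so the 75th percentile of an area, to which the deposited signals appear to be scaled, corresponded to only 4 to 9 counts. No target was listed at 0. The lowest value in an area equalled 1 count, which was 2.04 to 3.07 signal units in Sham and 1.36 to 3.07 in CuNZ@Gel, and 12.9% to 46.9% of targets stood at that floor. The shallowest area, region 1 of CuNZ@Gel specimen 1, also correlated least with the others of its treatment (mean r over targets 0.818, against 0.851 to 0.870 for the other 7 areas). Slide and sequencing run were not given in the sources used here, so their part in the differences cannot be told apart from that of treatment. The panel's target names follow mouse usage, and 16665 of them equal a rat gene symbol. Probes of near-identical family members (haemoglobins, metallothioneins, MHC class II chains) may read each other's RNA. Whether each probe reads every rat allele of its gene is not given in the sources used here and was not tested, so a target near the floor in 1 treatment and high in another, as H2-Ab1, C1qb and Rpn2 below, gives the signal of its probe.

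Of 18212 targets tested, 23 (0.126%) were higher and 96 (0.527%) lower in CuNZ@Gel at a limma adjusted p under 0.05. The calls of every gene list below are to be read against these shares, and a list with 0 calls lies near them. The signals of an area were taken as log2(signal + 1), averaged over the 2 areas of a specimen, and specimens were compared, so differences below are on that log2 scale and understate those of low targets. As background of an area served its 1116 targets for odorant and pheromone receptors, of which the 99th percentile was taken. Among the 4510 targets that exceeded this receptor background in at least 4 of the 12 Segment 2 areas, the median difference was -0.25, and 72.6% lay below 0. The median became -0.02 under quantile normalization and -0.05 after scaling each area to its median of targets above background, so differences are to be read against that shift. With quantile normalization the calls split into 48 higher and 46 lower, and with the median scaling into 48 and 68, so the excess of lower calls depends on the scaling. Every CuNZ@Gel area lay above every Sham area for 257 of the tested targets (1.41%) and below for 593 (3.26%), and for 100 of the 119 called targets the 2 sets of areas did not overlap (16 higher, 84 lower). Each treatment had 2 specimens, and the p-values measure only the spread between these specimens, pooled over targets. For the 119 called targets the median SD used was 0.290, against a median own SD of 0.354. The median target had infinite prior degrees of freedom against 3 residual ones, so the pooled spread replaced its own. For 81 of the 119 the own SD exceeded the SD used, so very small p-values rest on the pooled spread. An exact permutation of 2 against 2 specimens cannot go below a two-sided p of 0.333. Leaving out Sham specimen 1 cut the calls to 32 and leaving out CuNZ@Gel specimen 1 to 48. Without the shallowest area 72 targets passed the threshold (18 higher, 54 lower), 63 of them among the 119. Without region 2 of Sham specimen 2, an area that stood apart for several genes below, 86 passed (21 higher, 65 lower), 71 of them among the 119.

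**Figure D1:**
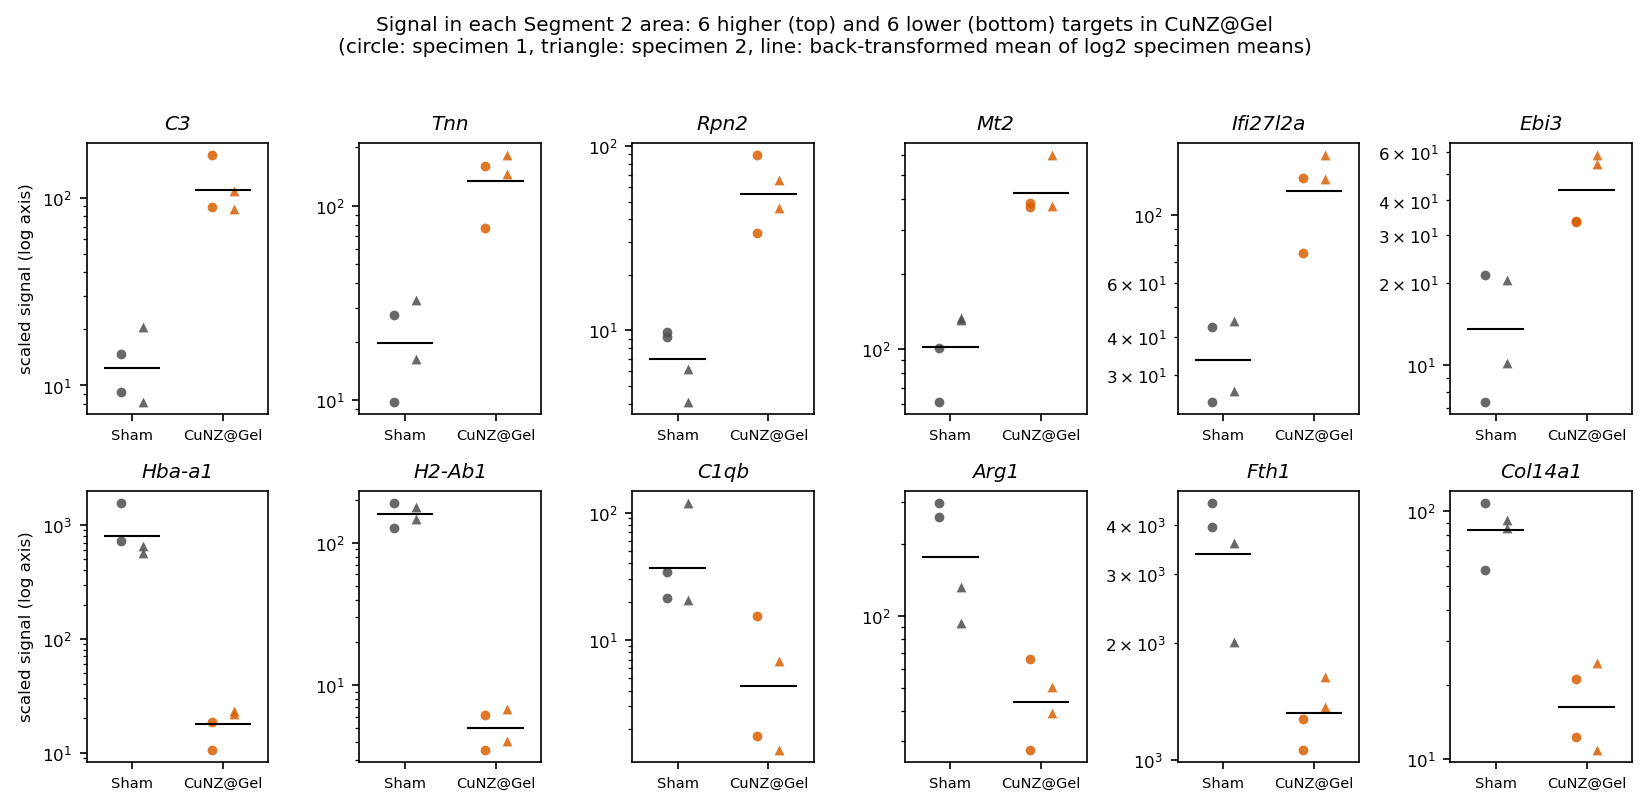
Scaled signal (log axis, a separate range for each target) of 12 targets in the 4 Sham and 4 CuNZ@Gel Segment 2 areas, with circles for specimen 1, triangles for specimen 2 and a line at the back-transformed mean of the log2 specimen means. For all 12 the CuNZ@Gel areas lie wholly above (top row) or wholly below (bottom row) the Sham areas, from C3 with a difference of 3.05 to Hba-a1 with -5.43 on the log2 scale.

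Complement genes moved in both directions. C3, the central protein of the complement cascade, showed the largest rise among the called targets. In the order specimen 1 region 1, specimen 1 region 2, specimen 2 region 1 and specimen 2 region 2, which is kept throughout, C3 signal was 9.20, 14.7, 8.18 and 20.4 in Sham. In CuNZ@Gel it was 169, 89.4, 87.2 and 109, with every area above every Sham area. The means were 13.1 ± 1.66 and 114 ± 21.8 (SD, n = 2 specimens), a log2 difference of 3.05 (SE 0.27, limma adjusted p = 8.0e-26). Its call held under all 25 alternative settings. C6, a component of the membrane attack complex, went from 9.20, 7.36, 4.09 and 26.6 in Sham to 30.7, 33.3, 38.2 and 27.3 in CuNZ@Gel. The highest Sham area of C6 lay just below the lowest CuNZ@Gel area, and the difference of 1.66 (SE 0.33, adjusted p = 2.7e-04) missed the threshold without Sham specimen 1 (1.48, adjusted p = 0.0548).

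The 3 chains of C1q, which bind together in 1 protein, did not move together. C1qb stood at 21.5, 34.3, 20.4 and 119 in Sham and at 15.3, 1.75, 6.81 and 1.36 in CuNZ@Gel, where values of 1.36 and 1.75 are 1 count. Its areas did not overlap, and it fell by 2.82 on the log2 scale (SE 0.31, adjusted p = 9.6e-16), although region 1 areas alone gave -0.96, adjusted p = 0.651. C1qc was at 82.8, 78.5, 40.9 and 298 in Sham and 208, 168, 174 and 223 in CuNZ@Gel, and rose by 1.02 (SE 0.24, adjusted p = 0.0066). Region 2 of Sham specimen 2 had the highest C1qc of all 8 areas, so the groups overlapped. The C1qc call was lost without Sham specimen 1 (0.79, adjusted p = 0.692) and without either CuNZ@Gel specimen (adjusted p = 0.155 and 0.121). C1qa, named after its values were seen, was at 24.5, 41.7, 18.4 and 65.4 and 46.0, 42.0, 36.8 and 45.0, overlapping, with a difference of 0.33 (SE 0.29, adjusted p = 0.831). Of 16 listed complement genes measured, 15 were tested, 2 rose (C3, C1qc) and 1 fell (C1qb); the list does not hold C6. The 5 above background had a median of 0.33, against -0.25 over all targets above background.

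General macrophage markers were present in both treatments and showed no common direction. Of 22 measured, 21 were tested, 2 rose (C1qc, Lyz2) and 2 fell (among them C1qb), with a median of -0.14 over the 10 above background. Their summed signal was 1188 to 1856 in Sham and 1291 to 1506 in CuNZ@Gel areas. Cd68, a lysosomal membrane protein of macrophages, was at 221, 196, 117 and 190.1 in Sham and 107, 224, 157 and 173 in CuNZ@Gel, overlapping, with a difference of -0.14 (SE 0.23, adjusted p = 0.928). Adgre1, which encodes F4/80, stayed below the receptor background in all 8 areas (1.75 to 6.13). Lyz2, the lysozyme gene of myeloid cells, was at 123, 132, 143 and 188 and 239, 229.5, 320.2 and 260.3, without overlap, and rose by 0.84 (SE 0.23, adjusted p = 0.0473). The call sat close to the threshold, and leaving out any 1 of the 4 specimens ended it (adjusted p from 0.155 to 0.832). In areas of mixed cells, fewer cells of a type and less RNA per cell cannot be told apart.

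Arg1 was lower in CuNZ@Gel. It encodes arginase 1, a marker of alternatively activated macrophages that turns arginine into ornithine. Its signal was 261, 297, 133 and 94.0 in Sham and 27.6, 66.6, 50.4 and 39.5 in CuNZ@Gel. The areas did not overlap, and both areas of Sham specimen 1 lay above both areas of Sham specimen 2. The difference was -1.99 (SE 0.26, adjusted p = 4.6e-11), and without Sham specimen 1 it was -1.33, adjusted p = 0.0592. With areas as units and the specimen as a random block the Arg1 call was lost at the same difference (adjusted p = 0.45), as it was in region 1 areas alone (-2.29, adjusted p = 0.385) and in region 2 areas alone (-1.68, adjusted p = 0.88). Of 18 genes of alternatively activated macrophages Arg1 alone passed the threshold among 15 tested. The mannose receptor Mrc1 was at 24.5, 36.8, 49.1 and 42.9 and 21.5, 21.0, 25.9 and 28.6, with overlap and a difference of -0.61 (SE 0.30, adjusted p = 0.552).

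Genes of lipid-associated macrophages split. Apoe, a lipid carrier, was at 18.4, 17.2, 12.3 and 51.1 in Sham and 39.9, 78.8, 40.9 and 53.1 in CuNZ@Gel. It rose by 1.23 (SE 0.29, adjusted p = 0.00691), with region 2 of Sham specimen 2 inside the CuNZ@Gel range. Spp1, the secreted phosphoprotein osteopontin, was at 202, 167, 92.0 and 12.3 and 12.3, 7.01, 62.7 and 5.45. Its 3 highest Sham areas exceeded every CuNZ@Gel area and the fourth, again region 2 of specimen 2, did not. Spp1 fell by 2.48 (SE 0.38, adjusted p = 1.2e-07), with -1.28 without Sham specimen 1 and -2.66, adjusted p = 0.527 without the shallowest area. The Spp1 call was also lost in the fit of Sham and CuNZ@Gel specimens alone (adjusted p = 0.387). It was lost too over targets above background (adjusted p = 0.192) and with DESeq2 (adjusted p = 0.759). The Apoe call was lost without Sham specimen 1 (0.99, adjusted p = 0.559) and without CuNZ@Gel specimen 1 (adjusted p = 0.318). Of the 15 genes in that list, all tested, these 2 were past the threshold. Ctsl, a lysosomal cysteine protease, was at 58.3, 63.8, 24.5 and 63.4 and 3.07, 47.3, 28.6 and 21.8. It fell by 1.39 (SE 0.30, adjusted p = 0.00107), with overlap, and its lowest value came from the shallowest area, without which it was -0.50, adjusted p = 0.627. The other 18 tested lysosome genes did not pass, and the median of the 11 above background was -0.44. Without Sham specimen 1, CuNZ@Gel specimen 1 or region 2 of Sham specimen 2 the Ctsl call was lost too (adjusted p = 0.508, 0.527 and 0.117).

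Inflammatory macrophage genes gave no call. Of 18 tested, 0 passed the threshold in either direction. Over all tested targets only 0.126% were called higher and 0.527% lower, so 0 of 18 lies near that share. The 4 above background had a median of -0.33, against -0.25 over all targets above background. The cytokine genes Tnf and Il1b were below the receptor background in all 8 areas. Il1b was at 9.20, 2.45, 4.09 and 10.2 in Sham and 3.07, 1.75, 1.36 and 4.09 in CuNZ@Gel, values of 1 to 5 counts, with a difference of -0.98 (SE 0.46, adjusted p = 0.523), and Tnf differed by -0.55 (SE 0.48, adjusted p = 0.832). At these counts a difference in either could hardly be detected. Ebi3, a subunit of the cytokines interleukin 27 and interleukin 35, was at 21.5, 7.36, 20.4 and 10.2 and 33.7, 33.3, 54.5 and 58.6. It rose by 1.61 (SE 0.30, adjusted p = 7.3e-05) without overlap, and without CuNZ@Gel specimen 2 by 1.24, adjusted p = 0.0936. Ifi27l2a, an interferon-inducible gene, was at 42.9, 24.5, 26.6 and 45.0 in Sham and 132, 75.3, 157 and 131 in CuNZ@Gel. The rise of 1.80 (SE 0.26, adjusted p = 8.9e-09) was kept without each specimen in turn, and it was the only one of 22 tested interferon-inducible genes past the threshold.

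H2-Ab1, the mouse name of the beta chain of the MHC class II molecule H2-A, had the largest fall of the called targets after Hba-a1. Sham areas read 190.1, 128, 179.9 and 147, and CuNZ@Gel areas 6.13, 3.50, 4.09 and 6.81, which are 2 to 5 counts. All 4 Sham areas and 0 of 4 CuNZ@Gel areas exceeded the receptor background. The means were 161 ± 3.32 and 5.13 ± 0.447 (SD, n = 2 specimens), a log2 difference of -4.74 (SE 0.37, adjusted p = 1.3e-33) that held under all 25 settings. Other genes of antigen presentation did not follow it. Cd74, the invariant chain that escorts class II molecules, was at 82.8, 56.4, 100.2 and 65.4 and 104, 49.1, 127 and 135, overlapping, with a difference of 0.38 (SE 0.25, adjusted p = 0.742). H2-Eb1, a class II beta chain named after its values were seen, was at 107, 76.0, 131 and 133 and 196, 99.9, 219 and 244, with 0.72 (SE 0.25, adjusted p = 0.26). Of 10 class II genes measured, 9 were tested, H2-Ab1 alone passed, and the median of the 4 above background was 0.47.

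Mt2, a metallothionein, was higher in every CuNZ@Gel area. Its signal was 61.3, 101, 131 and 133 in Sham and 386, 369.7, 599.6 and 375 in CuNZ@Gel. The means were 106 ± 36.0 and 433 ± 77.2 (SD, n = 2 specimens), and the log2 difference was 2.05 (SE 0.21, adjusted p = 2.0e-18), a 4.13-fold rise. It kept its direction but not its call under quantile normalization (2.42, adjusted p = 0.685) and median scaling (2.25, adjusted p = 0.299). Mt1, whose promoter above holds more motif matches, was at 46.0, 51.5, 32.7 and 38.8 in Sham and 30.7, 40.3, 77.7 and 61.3 in CuNZ@Gel. Both areas of CuNZ@Gel specimen 2 lay above all Sham areas and those of specimen 1 did not, and the difference was 0.24 (SE 0.26, adjusted p = 0.875). Of 21 genes of metallothionein, copper and zinc handling, all tested, Mt2 alone passed, and the 9 above background had a median of 0.13. Slc31a1, the copper importer, was below the receptor background in all 8 areas (1.36 to 6.13). Sod1, the copper and zinc superoxide dismutase, was at 147, 164, 141 and 157 and 76.7, 92.9, 99.5 and 119. Its areas did not overlap, but its difference of -0.66 (SE 0.25) did not pass the threshold (adjusted p = 0.298), and 0 of 25 antioxidant genes did. Hmox1, which encodes haem oxygenase 1, was below background throughout (1.36 to 6.13).

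In the Gel areas, which are compared with the same Sham areas, Mt2 was at 3984, 3645, 2602 and 1915, and the Gel minus Sham difference was 4.83 against 2.05 for CuNZ@Gel. Mt1 was at 467, 426, 278 and 172 in Gel, a Gel minus Sham difference of 2.88 against 0.24. CuNZ@Gel tested directly against Gel was lower for both, by 2.78 for Mt2 (SE 0.21, adjusted p = 2.0e-35) and by 2.64 for Mt1 (SE 0.26, adjusted p = 2.5e-21).

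Haemoglobin and ferritin targets were lower in CuNZ@Gel. Hba-a1, the haemoglobin alpha chain, showed the largest fall of the called targets, from 721, 1558, 568 and 654 in Sham to 18.4, 10.5, 23.2 and 21.8. The means were 875 ± 373 and 18.5 ± 5.68 (SD, n = 2 specimens), and the log2 difference of -5.43 (SE 0.26, adjusted p = 8.5e-88) held under all 25 settings. Hbb-b2, a beta chain, was at 27.6, 41.7, 14.3 and 18.4 and 6.13, 3.50, 4.09 and 6.81, without overlap, and fell by 2.04 (SE 0.46, adjusted p = 0.00358). That call was lost without Sham specimen 1 (-1.53, adjusted p = 0.657) and without CuNZ@Gel specimen 1 (adjusted p = 0.0761). The 6 erythrocyte markers measured summed to 773, 1614, 603 and 681 in Sham areas and to 36.8, 26.3, 39.5 and 40.9 in CuNZ@Gel areas, and Hbb-b1, Alas2 and Slc4a1, which belong to the list, did not exceed the receptor background in any of the 8 areas. Hba-a1 made up most of each Sham sum, so the lower erythrocyte sum in CuNZ@Gel rests mainly on that target. The part of erythrocyte signal in the other differences was not tested.

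Both ferritin subunits, which store iron, fell. Fth1, the heavy chain, was at 3952, 4550.0, 3597 and 2001 in Sham and 1061, 1274, 1635 and 1365 in CuNZ@Gel, without overlap, a difference of -1.36 (SE 0.19, adjusted p = 8.9e-10). Ftl1, the light chain, was at 555, 677, 581 and 425 and 239, 251, 377 and 252, likewise without overlap, with -1.003 (SE 0.22, adjusted p = 0.00185). Without Sham specimen 1 neither passed (-1.03, adjusted p = 0.223 for Fth1 and -0.85, adjusted p = 0.586 for Ftl1), and Ftl1 did not without CuNZ@Gel specimen 1 (adjusted p = 0.441). Under quantile normalization neither passed (adjusted p = 0.808 and 0.108). Fth1 also lost its call under median scaling (-1.15, adjusted p = 0.599) and with the specimen as a random block (adjusted p = 0.186). The other 10 of 12 tested iron genes were not past the threshold, and the median of the 7 above background was -0.46. Summed over the 13 measured iron genes, signal was 2706 to 5519 in Sham and 1462 to 2309.8 in CuNZ@Gel.

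**Figure D2:**
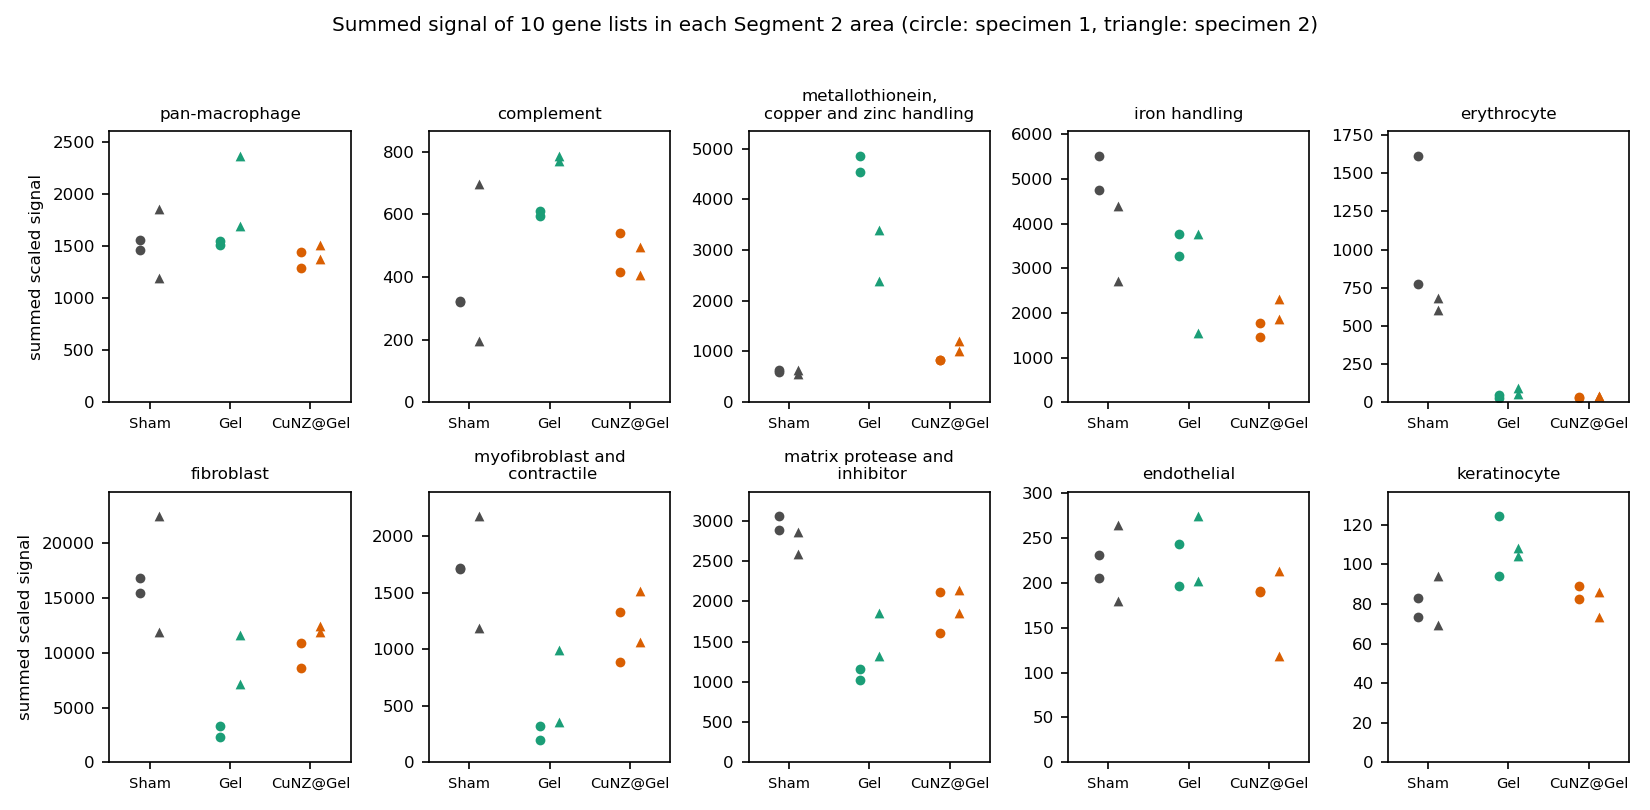
Summed scaled signal (linear axis from 0) of 10 gene lists in each Segment 2 area of Sham, Gel and CuNZ@Gel, circles for specimen 1 and triangles for specimen 2. The erythrocyte sum is 603 to 1614 in Sham and 26.3 to 40.9 in CuNZ@Gel, the iron, protease and metal handling sums of the 2 treatments do not overlap either, and the pan-macrophage, endothelial and keratinocyte sums do.

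The tenascin genes Tnn and Tnc rose, while called collagen genes fell. Tnn, which encodes tenascin W, a matricellular protein, was at 27.6, 9.81, 16.4 and 32.7 in Sham and 76.7, 159, 146 and 183 in CuNZ@Gel. Every CuNZ@Gel area exceeded every Sham area, and the difference was 2.71 (SE 0.33, adjusted p = 5.1e-13), kept under all 25 settings. In Gel areas Tnn was 5.45, 5.50, 6.13 and 2.04, so the Gel minus Sham difference was -1.91, and CuNZ@Gel exceeded Gel by 4.62 (SE 0.33, adjusted p = 1.4e-40). Tnc, tenascin C, a matrix protein of healing tissue, was at 138, 101, 55.2 and 549.8 and 230.0, 410.0, 371 and 545. Region 2 of Sham specimen 2 had the highest Tnc of the 8 areas and the other 3 Sham areas were below all CuNZ@Gel areas. The Tnc rise of 1.37 (SE 0.24, adjusted p = 5.2e-06) was lost without Sham specimen 1 (1.08, adjusted p = 0.235), without CuNZ@Gel specimen 2 (adjusted p = 0.0621) and with edgeR (adjusted p = 0.326). Fmod, fibromodulin, a collagen-binding proteoglycan, was at 9.20, 12.3, 18.4 and 61.3 and 39.9, 40.3, 84.5 and 43.6, overlapping through the same Sham area. Its difference of 1.32 (SE 0.32, adjusted p = 0.0121) became 0.53, adjusted p = 0.882 without Sham specimen 1, and it was not past the threshold without CuNZ@Gel specimen 2 or without the shallowest area (adjusted p = 0.337 and 0.321).

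Of 31 other matrix genes, 29 were tested, 3 rose (Tnn, Tnc, Fmod) and 4 fell (Ccn3, Spp1, Lum, Thbs2), and the 17 above background had a median of -0.30. Ccn3, a CCN matricellular protein, was at 269.8, 319, 241 and 386 in Sham and 79.7, 80.6, 66.8 and 54.5 in CuNZ@Gel. It fell by 2.09 (SE 0.26, adjusted p = 2.2e-12) with no overlap, and kept its call with each specimen left out in turn. Lum, lumican, another collagen-binding proteoglycan, was at 2208, 2306, 2003 and 2383 and 978, 1200.1, 1134 and 1353, and fell by 0.94 (SE 0.20, adjusted p = 7.7e-04). Thbs2, thrombospondin 2, named after its values were seen, was at 763, 669.6, 474 and 983 and 309.7, 385, 353 and 428, a difference of -0.93 (SE 0.22, adjusted p = 0.0107). Neither overlapped between treatments. The Lum call was lost without Sham specimen 1, Sham specimen 2 or CuNZ@Gel specimen 1 (adjusted p = 0.442, 0.164 and 0.339) and under both other scalings (adjusted p = 0.782 and 0.226). Mfap2, a component of elastic microfibrils, was at 119.6, 204, 79.7 and 186 and 18.4, 40.3, 20.4 and 38.2. It fell by 2.28 (SE 0.31, adjusted p = 1.8e-09) without overlap, and was not past the threshold without the shallowest area (-2.01, adjusted p = 0.603), under median scaling (-2.07, adjusted p = 0.383), over targets above background (adjusted p = 0.184) or with the specimen as a random block (adjusted p = 0.247). C1qtnf3, a secreted C1q/TNF-related protein, was at 135, 155, 92.0 and 81.8 and 39.9, 24.5, 21.8 and 21.8, a fall of 2.06 (SE 0.34, adjusted p = 7.2e-07), or -1.69, adjusted p = 0.0782 without Sham specimen 1.

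Of 21 collagen genes, all tested, 3 fell (Col14a1, Col15a1, Col12a1) and 0 rose, against 0.527% called lower over all tested targets. All 12 above background had differences below 0 (median -0.49), against 72.6% (median -0.25) of all targets above background. Under quantile normalization 6 of the 12 lay below 0 (median -0.01) and under median scaling 11 (median -0.28), so the list's direction depends on the scaling. Col14a1, a fibril-associated collagen, was at 58.3, 108, 85.8 and 92.0 in Sham and 12.3, 21.0, 10.9 and 24.5 in CuNZ@Gel. This fall of 2.30 (SE 0.32, adjusted p = 1.1e-09) had no overlap and was kept with each specimen left out. Col15a1, a basement membrane collagen, was at 199, 243, 317 and 87.9 and 52.1, 147, 61.3 and 195, with broad overlap, and its difference of -0.96 (SE 0.25, adjusted p = 0.0204) turned to 0.21 in region 2 areas alone (adjusted p = 0.908). Col12a1, also fibril-associated, was at 1429, 1631, 989 and 2038 and 629, 918, 867 and 1042, with overlap and a difference of -0.79 (SE 0.21, adjusted p = 0.0283). Leaving out any 1 of the 4 specimens ended the calls of Col15a1 and Col12a1 (adjusted p from 0.054 to 0.737 and from 0.0924 to 0.735). Neither Col1a1 nor Col3a1, the chains of fibrillar collagens I and III, passed. Col1a1 was at 227, 336, 235 and 470.1 and 150.2, 256, 244 and 313 (-0.38, SE 0.25, adjusted p = 0.733). Col3a1 was at 9869.6, 10655, 7023 and 15069 and 5313, 6691, 7846 and 7681 (-0.59, SE 0.83, adjusted p = 0.92). In the fit of Sham and CuNZ@Gel specimens alone, which leaves out the spread of the Gel specimens, Col3a1 passed (-0.59, adjusted p = 1.1e-04). Mmp2, a gelatin-cleaving protease, was at 898, 1038, 803 and 1374 and 579, 569, 599.6 and 598. Its fall of 0.78 (SE 0.21, adjusted p = 0.0322) had no overlap but was lost without any 1 specimen (adjusted p from 0.228 to 0.584), and the other 17 tested proteases and inhibitors were not past the threshold.

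Fibroblast markers were lower in CuNZ@Gel in 12 of the 13 cases above background (median -0.42), against 72.6% (median -0.25) of all targets above background. Under quantile normalization this was so for 6 of 13 (median 0.00) and under median scaling for 10 (median -0.21). Of 18 measured, 16 were tested, 4 fell (Col14a1, Lum, Thy1, Fap) and 0 rose, against 0.527% called lower over all tested targets. Thy1, a surface glycoprotein of fibroblasts, was at 269.8, 285, 229 and 121 in Sham and 82.8, 82.3, 79.0 and 110.4 in CuNZ@Gel, without overlap, and fell by 1.28 (SE 0.25, adjusted p = 1.3e-04). Fap, a surface protease of activated fibroblasts, was at 79.7, 44.2, 67.5 and 71.5 and 15.3, 40.3, 31.3 and 30.0, and fell by 1.19 (SE 0.30, adjusted p = 0.022). The Fap areas did not overlap either. Thy1 lost its call without Sham specimen 1 or CuNZ@Gel specimen 1 (adjusted p = 0.584 and 0.0539), and Fap without any 1 specimen (adjusted p from 0.0507 to 0.449). Summed over the list, signal was 11929 to 22459.8 in Sham and 8573 to 12458 in CuNZ@Gel areas, overlapping through the lowest Sham area. The part of fibroblast signal in the matrix results was not tested. Itga11, the integrin chain that binds collagen on fibroblasts, was at 113, 113, 61.3 and 151 and 42.9, 22.8, 15.0 and 32.7. It fell by 1.94 (SE 0.31, adjusted p = 5.1e-07) without overlap and with each specimen left out.

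Calls in the myofibroblast and contractile list went in both directions, while most of its genes above background were lower. Of its 14 genes, 13 were tested. The 2 that rose were Tnc, a matrix protein, and Tgfb1i1, a focal adhesion protein, and the 1 that fell was Tpm1. Of the 7 above background 6 lay below 0 (median -0.83), against 72.6% (median -0.25) of all targets above background. This was so for 6 under quantile normalization (median -0.50) and for 6 under median scaling (median -0.63). Tpm1, a tropomyosin of actin filaments, was at 258, 269.8, 196 and 266 in Sham and 58.3, 114, 85.8 and 132 in CuNZ@Gel. It fell by 1.39 (SE 0.25, adjusted p = 2.2e-05) with no overlap. The call was lost without Sham specimen 1 (-1.28, adjusted p = 0.0646) and without CuNZ@Gel specimen 1 (adjusted p = 0.0581). Acta2, smooth muscle actin, was at 714, 836, 425 and 709 and 282, 426, 285 and 403, overlapping by less than 1 signal unit, with a difference of -0.92 (SE 1.12, adjusted p = 0.913). As for Col3a1, with Sham and CuNZ@Gel specimens alone it passed (-0.92, adjusted p = 8.1e-05). Tagln, transgelin, was at 52.1, 101, 51.1 and 143 and 42.9, 40.3, 35.4 and 60.0, with overlap (-0.83, SE 0.31, adjusted p = 0.306). Tgfb1i1, a focal adhesion protein induced by TGF-beta, was below the receptor background in all Sham areas and in 3 of 4 CuNZ@Gel areas. Its values were 3.07, 2.45, 2.04 and 4.09 and 21.5, 10.5, 10.9 and 9.54, a rise of 1.81 (SE 0.49, adjusted p = 0.0352) that any 1 specimen left out ended (adjusted p from 0.0715 to 0.567).

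Vessel markers gave a call for 1 pericyte and 1 endothelial gene. Rgs5, a regulator of G protein signalling that marks pericytes, was at 119.6, 155, 102 and 100.2 in Sham and 27.6, 31.5, 13.6 and 25.9 in CuNZ@Gel. It fell by 2.27 (SE 0.30, adjusted p = 7.7e-11) without overlap, the only one of 9 tested pericyte genes past the threshold. The Rgs5 call was lost with DESeq2 (adjusted p = 0.64), over targets above background (adjusted p = 0.0711) and in region 2 areas alone (adjusted p = 0.0753). Aqp1, a water channel of capillaries, was at 64.4, 58.9, 18.4 and 47.0 and 18.4, 17.5, 9.54 and 8.18, with the highest CuNZ@Gel area at the lowest Sham area. Its fall of 1.68 (SE 0.36, adjusted p = 0.00125) was lost without Sham specimen 1 (-1.16, adjusted p = 0.673), CuNZ@Gel specimen 2 or region 2 of Sham specimen 2 (adjusted p = 0.184 and 0.0909), and the other 15 tested endothelial genes did not pass. Pecam1, the endothelial adhesion molecule CD31, was below background in all 8 areas (2.04 to 9.20). Alpl, tissue alkaline phosphatase, was at 61.3, 54.0, 18.4 and 55.2 and 6.13, 10.5, 13.6 and 13.6. It fell by 1.93 (SE 0.36, adjusted p = 7.1e-05) without overlap, with -1.52, adjusted p = 0.325 without Sham specimen 1 and adjusted p = 0.0515 without CuNZ@Gel specimen 1.

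The secreted factors Igfbp4, Mdk and Cxcl12 fell. Igfbp4, an insulin-like growth factor binding protein, was at 2076, 2004, 1478 and 842 in Sham and 389, 244, 343 and 341 in CuNZ@Gel. The areas did not overlap and the fall was 2.21 (SE 0.22, adjusted p = 5.4e-21). Mdk, the heparin-binding growth factor midkine, was at 156, 167, 141 and 182 and 36.8, 57.8, 39.5 and 43.6, again without overlap, and fell by 1.85 (SE 0.29, adjusted p = 1.2e-07). Cxcl12, a chemokine of stromal cells, was at 371, 353, 327 and 294 and 101, 133, 101 and 113, and fell by 1.58 (SE 0.24, adjusted p = 6.9e-08). All 3 calls were kept with each specimen left out. In region 2 areas alone Igfbp4 (-2.17, adjusted p = 0.218) and Cxcl12 (-1.39, adjusted p = 0.834) lost their calls. Cxcl12 lost it with DESeq2 too (adjusted p = 0.795). Mdk was the only called gene of 25 growth factor and signalling genes tested (median of the 11 above background -0.04). Cxcl12 was the only one of 29 chemokine and receptor genes (median of 9 0.00).

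Rpn2 rose most among the called targets after C3. It encodes ribophorin II, a subunit of the oligosaccharyltransferase that attaches sugars to new proteins. Sham areas read 9.20, 9.81, 4.09 and 6.13, all below the receptor background, and CuNZ@Gel areas 33.7, 89.4, 46.3 and 65.4, all above it. The difference was 2.82 (SE 0.39, adjusted p = 8.2e-10) and held under all 25 settings. In Gel areas it was 9.54, 9.73, 6.13 and 4.09, a Gel minus Sham difference of 0.01, and CuNZ@Gel exceeded Gel by 2.81 (SE 0.39, adjusted p = 5.6e-10). Slc7a2, a transporter of arginine and other cationic amino acids, was at 6.13, 9.81, 10.2 and 14.3 and 21.5, 38.5, 27.3 and 36.8. It rose by 1.54 (SE 0.36, adjusted p = 0.00694) without overlap, but not without Sham specimen 1 (1.25, adjusted p = 0.439) or either CuNZ@Gel specimen (adjusted p = 0.0992 and 0.0998). Stmn2, a microtubule regulator of neurons, was at 18.4, 7.36, 8.18 and 2.04 and 18.4, 21.0, 27.3 and 28.6. The lowest CuNZ@Gel and the highest Sham area of Stmn2 were equal, and the rise of 1.58 (SE 0.43, adjusted p = 0.0373) was lost without Sham specimen 2 (0.94, adjusted p = 0.653) or either CuNZ@Gel specimen (adjusted p = 0.168 and 0.375).

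Genes of the respiratory chain and ATP synthase were lower as a list. Of 17 tested genes of oxidative phosphorylation Atp5a1 fell. All 10 above background lay below 0 (median -0.74), against 72.6% (median -0.25) of all targets above background. All 10 stayed below 0 under quantile normalization (median -0.41) and 10 did under median scaling (median -0.53). Atp5a1, the alpha subunit of the mitochondrial ATP synthase, was at 190.1, 221, 166 and 198 in Sham and 76.7, 94.6, 106 and 114 in CuNZ@Gel, without overlap. Its difference was -0.98 (SE 0.24, adjusted p = 0.0139), and without 1 of 3 specimens or under quantile normalization it did not pass (adjusted p = 0.584 without Sham specimen 1, 0.139 without Sham specimen 2, 0.577 without CuNZ@Gel specimen 1, 0.107 under quantile normalization). Glycolysis and hypoxia genes (0 of 19 called, median 0.04 over 8), cytosolic ribosomal proteins (0 of 19, -0.21 over 14), heat shock genes (0 of 11, -0.33 over 7) and unfolded protein response genes (0 of 18, -0.39 over 11) gave no call.

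Enzymes that modify histones and DNA were listed because the series title speaks of epigenetic reprogramming. They gave no call among 35 tested, near the 0.126% called higher and 0.527% called lower over all tested targets. Their median was -0.22 over the 21 above background, against -0.25 over all targets above background. Kdm6b, a histone H3 demethylase, was at 24.5, 46.6, 53.1 and 22.5 in Sham and 33.7, 22.8, 30.0 and 53.1 in CuNZ@Gel (-0.04, SE 0.31, adjusted p = 0.987). Hdac3, a histone deacetylase, was at 12.3, 17.2, 22.5 and 20.4 and 21.5, 33.3, 27.3 and 20.4 (0.49, SE 0.34, adjusted p = 0.754). Dnmt1, the maintenance DNA methyltransferase, was below background in all 8 areas (2.04 to 12.3). All 3 overlapped between treatments. The sign of several list medians turned with the scaling: under quantile normalization those of the histone and DNA modification (0.08), ribosomal (0.17), heat shock (0.02), pan-macrophage (0.22), lipid-associated macrophage (0.19), growth factor (0.29) and other matrix lists (0.24) were above 0. Under median scaling those of the endothelial (0.06), pan-macrophage (0.07), lipid-associated macrophage (0.11) and growth factor lists (0.17) were. A call was likewise absent among neutrophil (15 tested), T and NK cell (14), B and plasma cell (9), mast cell (7), adipocyte (12), skeletal muscle (12), Schwann and nerve (9), proliferation (19), immediate-early (18) and keratinocyte genes (15). Keratinocyte markers summed to 69.5 to 94.0 in Sham and 73.6 to 88.9 in CuNZ@Gel over 20 measured genes, 0 of which were above background. Krt5 and Krt14, keratins of basal epidermis, ranged from 2.04 to 8.18 and from 2.45 to 6.13 over the 8 areas.

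**Figure D3:**
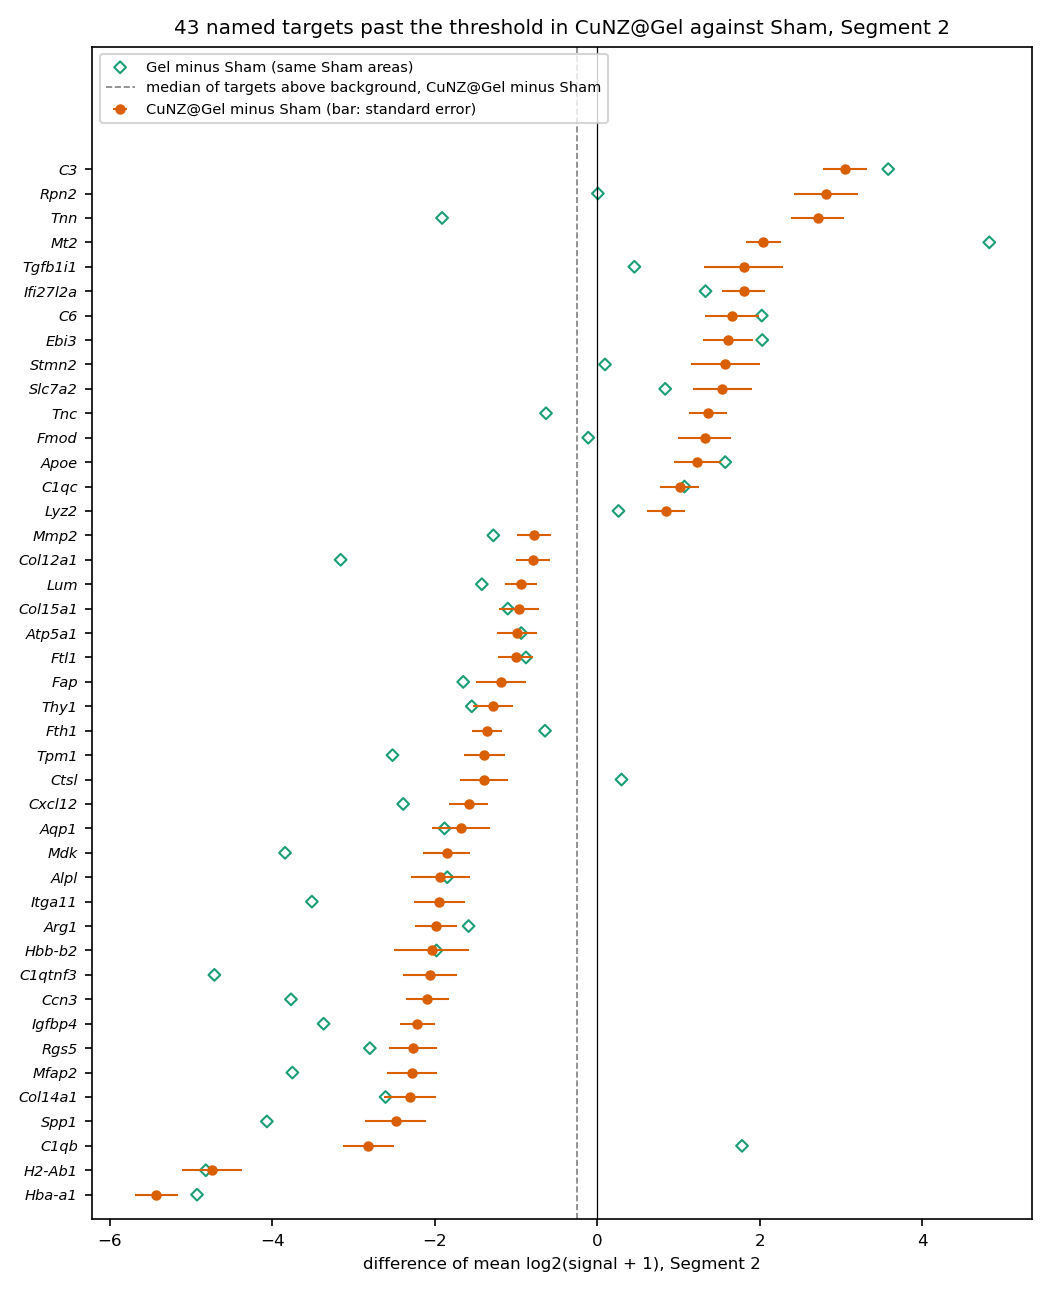
Difference of mean log2(signal + 1) between CuNZ@Gel and Sham in Segment 2 for 43 of the 44 named targets past the threshold (filled circles, bars are standard errors), with the Gel minus Sham difference of the same targets as open diamonds and the median of targets above background as a dashed line. Mt2, C1qb, Tnn and Rpn2 are among the targets whose circle and diamond lie far apart, whereas those of H2-Ab1 (-4.74 and -4.82) and Hba-a1 (-5.43 and -4.93) lie close together.

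The direct test of CuNZ@Gel against Gel asks where the nanozyme gel differed from the gel alone. It called 123 of 18212 targets, 95 higher (0.522%) and 28 lower (0.154%) in CuNZ@Gel. Of these 123, 28 were among the 119 that differed from Sham (21 higher, 7 lower than in Gel). Both comparisons use the same CuNZ@Gel specimens, so this overlap is a description. C1qb, at 104, 107, 190.1 and 131 in Gel, was lower in CuNZ@Gel by 4.60 (SE 0.31, adjusted p = 3.2e-44), with a Gel minus Sham difference of 1.78. C3, at 169, 165, 96.1 and 237 in Gel, overlapped between the gels, with -0.53 (SE 0.27, adjusted p = 0.774). H2-Ab1 (0.07, SE 0.37, adjusted p = 0.999) and Hba-a1 (-0.50, SE 0.26, adjusted p = 0.787) were not past the threshold between the gels. Several matrix and signalling genes that were lower than in Sham were higher than in Gel: C1qtnf3 by 2.65, Col12a1 by 2.37, Mdk by 1.99, Ccn3 by 1.68, Spp1 by 1.59, Itga11 by 1.57, Mfap2 by 1.47, Igfbp4 by 1.15 and Tpm1 by 1.13 (largest adjusted p = 0.00655). Tagln, at 4.09, 3.38, 6.13 and 16.4 in Gel, was higher in CuNZ@Gel by 2.63 (SE 0.31, adjusted p = 9.9e-14). Ctsl and Mrc1 were lower than in Gel, by 1.69 (SE 0.30, adjusted p = 4.8e-06) and 1.20 (SE 0.30, adjusted p = 0.0109). CuNZ@Gel against Sham and Gel against Sham share the Sham areas, so likeness between those 2 comparisons is not counted as a result. Side by side, 10 of the 23 higher and 55 of the 96 lower targets were also past the threshold in the same direction for Gel.

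**Figure D4:**
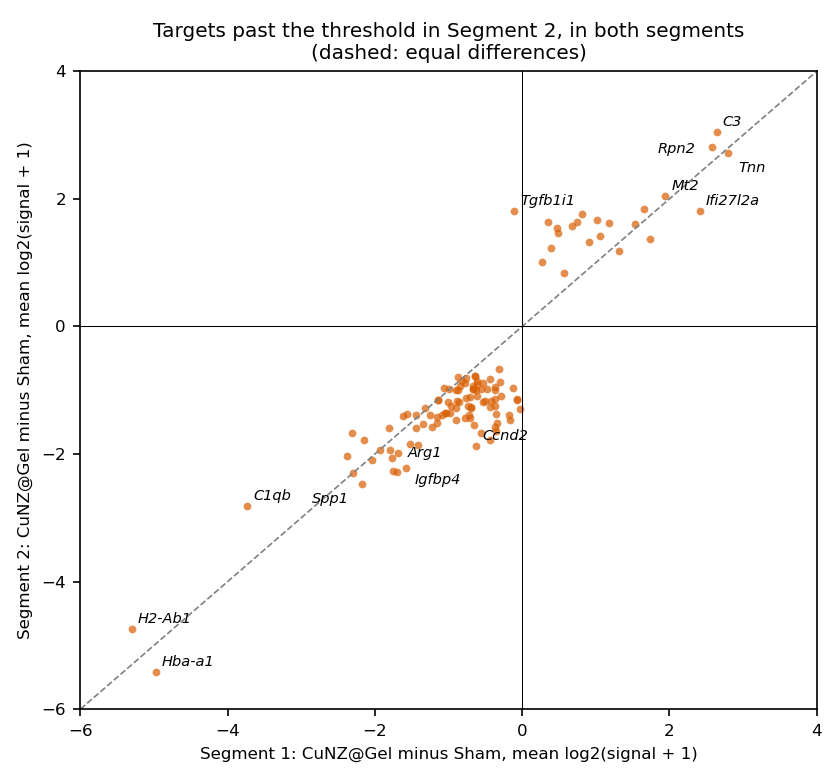
CuNZ@Gel minus Sham difference of mean log2(signal + 1) in Segment 1 (horizontal) and Segment 2 (vertical) for the 119 targets past the threshold in Segment 2, with a dashed line at equal differences. All but 1, Tgfb1i1, have the same sign in both segments, and 100 are larger in size in Segment 2, where they were chosen.

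Segment 1 areas of the same regions were used to ask whether the difference from Sham was another one in Segment 2. A test of the difference between segments called 0 of 18212 targets (0%) with limma, 0 with edgeR and 0 with DESeq2. At an unadjusted p under 0.05 there were 960, or 5.27%, and the smallest adjusted p was 0.423. The median SE of that test was 0.463 on the log2 scale, and even a difference of 1.92 (Tgfb1i1, below) did not pass. Large differences between segments could thus go undetected, and the 0 calls do not show that the segments are alike. Of the 119 targets, 118 had the same sign in Segment 1 and 52 were past the threshold there, against 183 of all 18212 tested. The targets were chosen by their Segment 2 values and the segments share specimens, so this is a description. C3 in Segment 1 ranged from 10.1 to 37.1 in Sham and 64.2 to 150.2 in CuNZ@Gel, Rpn2 from 9.62 to 13.0 and 64.6 to 81.1, and H2-Ab1 from 118 to 272 and 2.45 to 6.90, none with overlap. Tgfb1i1, the exception in sign, ranged from 3.50 to 7.21 and 2.83 to 6.13 in Segment 1, where it differed by -0.11, and the Segment 2 minus Segment 1 difference was 1.92 (SE 0.46, adjusted p = 0.925).

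**Figure D5:**
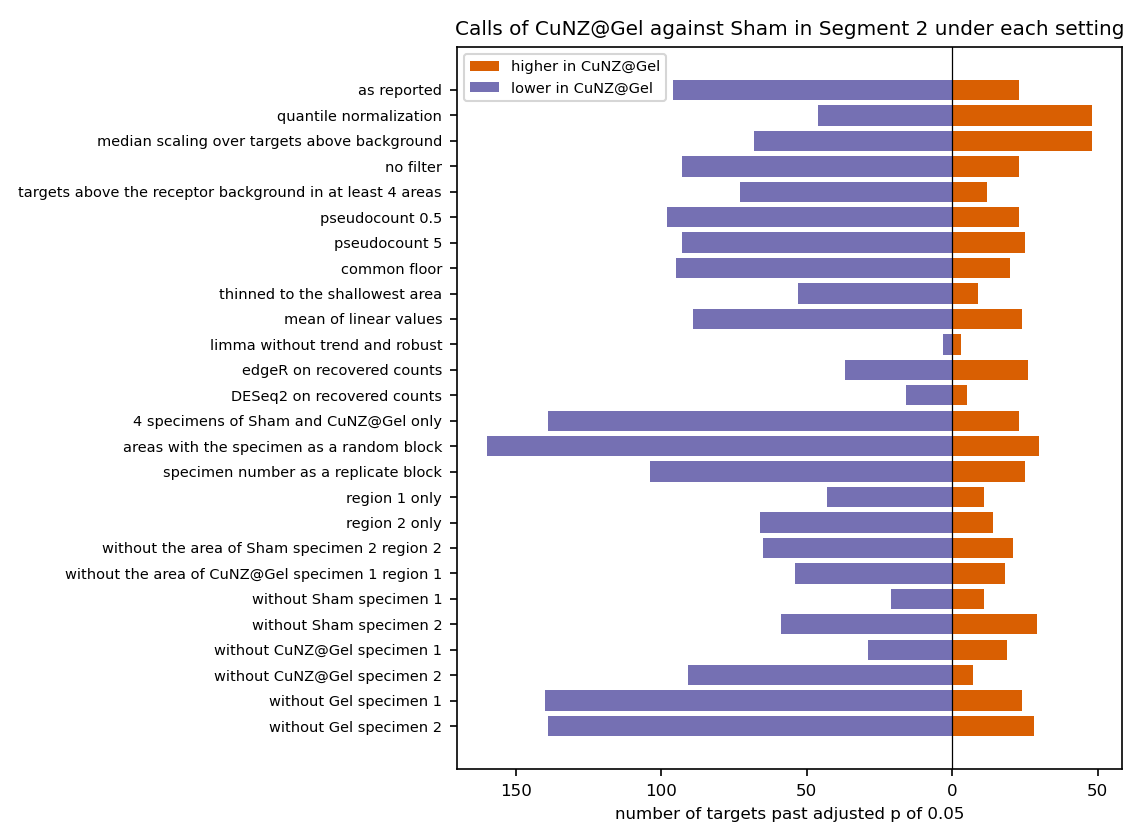
Number of targets past an adjusted p of 0.05 in CuNZ@Gel against Sham in Segment 2 under each setting, higher to the right and lower to the left of 0. The total runs from 6 without limma's trend and robust options to 190 with areas as units, and the 2 other scalings hold 48 higher calls each, against 23 as reported.

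The 5 targets past the threshold under all 25 settings were Hba-a1, H2-Ab1, C3, Tnn and Rpn2. A further 6 lost it only in limma without trend and robust options: Col14a1, Ccn3, Mdk, Ifi27l2a and, named after their values were seen, Gpc1, a cell-surface heparan sulfate proteoglycan, and Lgals1, galectin 1. Gpc1 was at 144, 149.6, 153 and 188 in Sham and 55.2, 68.3, 34.1 and 55.9 in CuNZ@Gel (-1.59, SE 0.28, adjusted p = 5.7e-06). Lgals1 was at 813, 873, 581 and 1032 and 239, 291, 305 and 289 (-1.53, SE 0.22, adjusted p = 2.2e-09). Neither overlapped. Leaving out each Sham or CuNZ@Gel specimen in turn kept the calls of 16 of the 44 called named genes, and under the 2 other scalings 0 of the 44 changed sign. Quantile normalization ended 10 of the 44 calls and median scaling 6 (Fap, Fth1, Lum, Mfap2, Mt2 and Spp1). With areas as units and the specimen as a random block 9 of the 44 were lost: Arg1, C1qc, Col12a1, Col15a1, Ctsl, Fth1, Mfap2, Spp1 and Tnc (adjusted p from 0.186 to 0.762). Region 1 areas alone and region 2 areas alone each ended 19. Leaving out the shallowest area also ended the calls of Col12a1, Col15a1, Fap, Lyz2, Stmn2 and Tgfb1i1 (adjusted p from 0.0588 to 0.392), and leaving out region 2 of Sham specimen 2 those of Atp5a1, Col12a1, Fap, Mmp2 and Stmn2 (adjusted p from 0.0591 to 0.437).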

How the data were processed

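Per the labels, fixed wound sections were hybridised with GeoMx RNA probes and tags of each fluorescence-defined area were sequenced. The deposited files give a scaled signal per target and area. The counting software, probe filtering and scaling were not given in the sources used here. Signals were whole multiples of each area's lowest value for at least 99.98% of targets (within 0.01 of a count), so counts could be recovered.

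Log2(signal + 1) was averaged over the 2 areas of a specimen. The 6 Segment 2 specimen means (Sham, Gel, CuNZ@Gel) were fitted together in limma 3.58.1 under R 4.3.3, with the trend and robust options of eBayes. Tests covered the 18212 of 19963 targets that exceeded the negative probe in 4 or more of 12 areas, with Benjamini-Hochberg adjustment and a threshold of 0.05. The segment test used within-specimen differences. The plan foresaw a count test if files held counts. As they held scaled signal, edgeR 4.0.16 and DESeq2 1.42.0 on recovered counts are alternatives, among 25 that cover scaling, filter, pseudocount, floor, thinning, averaging, unit, block, regions and left-out specimens. Specimen numbers did not pair the samples. Leaving out either of 2 single areas was added after the data were seen. The fits were also run on simulated areas in which all targets were given the same added spread between specimens and areas. That run does not cover the target-specific spread of these data.

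Named genes were the 12 largest rises and 12 largest falls past the threshold with specimen means apart and the higher treatment above background in all its areas, up to 4 called members of each of 37 lists, and 24 genes given whatever their values. Members and lists were chosen with earlier results of these data known. Promoters are RefSeq GRCr8. Some list members are not reported here.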

Additional observations from a re-analysis of the deposited data

Results flagged for a closer look

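In 7 of the 44 named genes past the threshold, 1 of the 4 areas of a treatment stood far from the other 3, by Dixon's criterion for 4 values. Chance alone gives such a value in about 1 of 20 groups of independent values, and each of the 44 genes has 2 groups. The 4 areas of a group are not independent, being 2 areas from each of 2 specimens. Region 1 of Sham specimen 2 was the low area for Alpl (18.4, others 54.0 to 61.3), Ctsl (24.5, others 58.3 to 63.8) and Tpm1 (196, others 258 to 269.8). Region 1 of CuNZ@Gel specimen 2 was the high area for Mt2 (599.6, others 369.7 to 386), Fmod (84.5, others 39.9 to 43.6) and Ftl1 (377, others 239 to 252). Region 2 of CuNZ@Gel specimen 2 was the high area for Thy1 (110.4, others 79.0 to 82.8). In each case the value is 1 area of a specimen whose mean entered the test. The signals of C1qb and Hba-a1 also held 1 Sham area far above the other 3, although these genes were not among the 7 flagged.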

How the results depend on the processing

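Over the 25 settings the 119 calls of CuNZ@Gel against Sham became 62 after thinning to the shallowest area, 6 in limma without trend and robust options, 63 with edgeR, 21 with DESeq2, 190 with areas as units and the specimen as a random block (110 of the 119 among them), 54 in region 1 areas alone, 80 in region 2 areas alone and 72 without the shallowest area. Calls also numbered 162 with Sham and CuNZ@Gel specimens alone, 94 under quantile normalization and 85 over targets above background. Leaving out 1 specimen gave 32 to 167. For CuNZ@Gel against Gel, 123 calls became 194 under quantile normalization, 74 after thinning, 19 without trend and robust options, 44 with DESeq2 and 68 in region 1 areas, and 73 to 145 with 1 specimen left out. The segment test called 0 under each alternative. Of 1589 recomputed gene differences, 1309 kept their side of the threshold, 273 lost the call and 6 gained it. Of the called genes Col15a1 turned, to 0.21 in region 2 areas. Of the 1309, 33 had the other sign, all of 11 genes not past the threshold as reported or in that setting (Cd68, Krt5, Krt14, Kdm6b, Dnmt1, Mt1, Hmox1, Adgre1, Cd74, Col1a1 and Tnf), so no direction is read for these. The cause was not tested. Specimen numbers paired nothing (correlation 0.0016 between same-numbered Sham and CuNZ@Gel deviations). With the specimen number as a replicate block 129 targets passed against Sham (25 higher, 104 lower) and 130 against Gel. At 4 to 9 counts for the 75th percentile, low targets move by whole counts.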

Other observations

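The 119 targets past the threshold held further genes, all named here after their values were seen, in no list, and so given as values only. Tkt, the transketolase of the pentose phosphate pathway, was at 184, 319, 178 and 169.7 in Sham and 67.5, 87.6, 95.4 and 87.2 in CuNZ@Gel (-1.28, SE 0.24, limma adjusted p = 9.5e-05). G6pd2, a glucose-6-phosphate dehydrogenase, was at 76.7, 115, 69.5 and 73.6 and 30.7, 57.8, 24.5 and 30.0 (-1.25, SE 0.28, adjusted p = 0.00402). Glud1, glutamate dehydrogenase (-1.18, adjusted p = 0.00249), Mdh1, cytosolic malate dehydrogenase (-1.09, adjusted p = 0.0121), and Mpc1, a mitochondrial pyruvate carrier (-1.27, adjusted p = 0.012), were lower too. For all 5 genes the areas of the treatments did not overlap.

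Hs6st1, an enzyme that adds sulfate to heparan sulfate chains, was at 307, 388, 253 and 313 in Sham and 82.8, 154, 181 and 185 in CuNZ@Gel (-1.11, SE 0.24, adjusted p = 0.00134), and Hs2st1, another such enzyme, at 52.1, 34.3, 36.8 and 32.7 and 9.20, 22.8, 13.6 and 19.1 (-1.27, SE 0.34, adjusted p = 0.0337). Sfrp2, a secreted Wnt antagonist of fibroblasts, was at 785, 677, 333 and 1141 and 328, 231, 308 and 252 (-1.27, SE 0.22, adjusted p = 9.0e-06), without overlap. Il1rl1, the receptor of interleukin 33, fell by 1.00 (SE 0.27, adjusted p = 0.0396), from 117, 128, 69.5 and 69.5 to 27.6, 54.3, 58.6 and 49.1. Among the rises, Gzmk, granzyme K of T cells, was at 12.3, 2.45, 6.13 and 4.09 and 15.3, 14.02, 21.8 and 27.3 (1.64, SE 0.43, adjusted p = 0.0283), and Zic1, a positional transcription factor, at 6.13, 2.45, 4.09 and 2.04 and 15.3, 10.5, 21.8 and 13.6 (1.84, SE 0.45, adjusted p = 0.0121). Both were below the receptor background in all 4 Sham areas. Calls in these 2 paragraphs were lost under 4 to 14 of the 25 settings.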
